A study of Mus musculus with 4 samples.

Results

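The genes of the proteasome were examined in insulin reporter-positive cells that had been made from mouse gallbladder cells. Members were all rows of the deposited gene table whose symbol is Psm followed by a letter from a to g and a number, which gave 48 of 20377 genes. The 4 libraries form 1 group, rGBC2. Its cells came from 8 weeks old MIP-GFP mice (B6.Cg-Tg(Ins1-EGFP)1Hara/J, on C57BL/6), in which an Ins1 promoter drives the reporter. Cultured primary gallbladder cells all received the factors Pdx1, Ngn3 (Neurog3), Mafa and PAX6 together with compounds not named in the labels, over 10 days, and reporter-positive cells were then sorted. Because the sort selected an active Ins1 promoter, the values hold for sorted cells only. Levels are in RPKM, a read density corrected for transcript length and library size, and with 1 group no treated and untreated cells were compared.

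The proteasome is the protease that degrades ubiquitin-tagged proteins in the cytosol and nucleus. Its barrel-shaped core particle is built of outer alpha rings (Psma genes) and inner beta rings (Psmb genes). The active sites lie in the subunits beta1 (Psmb6, caspase-like), beta2 (Psmb7, trypsin-like) and beta5 (Psmb5, chymotrypsin-like). Interferon-gamma induces replacement subunits beta1i (Psmb9), beta2i (Psmb10) and beta5i (Psmb8), and the resulting immunoproteasome favours peptides that fit class I antigen presentation. The regulatory particle, with an ATPase ring (Psmc genes) and non-ATPase subunits (Psmd genes), binds, unfolds and feeds substrates. Beta cells pass large amounts of proinsulin through the endoplasmic reticulum, and misfolded chains are exported from there to the proteasome.

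The 10 genes listed for the labelled cells were all above 1 RPKM, against 65% of all genes tested. They were the insulin genes, the delivered factors and 4 biliary epithelial genes. Since the sort used an Ins1 reporter and the factors were delivered, the insulin genes and these factors are no independent check of the label. Depth was estimated at 22.3 M to 32.8 M reads per library. Replicates 1 and 2 held reads of the Y-linked genes Eif2s3y, Ddx3y, Kdm5d and Uty, which were listed at 0 in replicates 3 and 4. Replicates 3 and 4 were also the most alike pair, with a SD across genes of 0.16 for their difference in log2(RPKM + 1), against 0.57 to 0.79 for the other 5 pairs. Their difference exceeded the sampling noise of reads, with a median chi-square of 2.44 per gene on estimated reads against 0.455 from sampling alone. This does not tell separate samples from 2 preparations of the same sample, and the 2 libraries were counted separately because the labels number them so. The summed RPKM was 481676 in replicate 1 and 524764 to 581805 in the others, and the order of libraries given for a gene holds for RPKM as deposited. The labels do not say whether the 4 libraries came from separate animals or cultures. A p-value here measures only the spread between these libraries, which may be technical.

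Nearly all proteasome genes were transcribed. Of the 48 members, 46 lay above 1 RPKM, 1 lay below it and 1 was listed at 0 in every library. The test was limma's moderated test on log2(RPKM + 1) with Benjamini-Hochberg adjustment over 16919 genes, of which 65% lay above 1 RPKM and 26.1% below. The largest adjusted p among the 46 was 0.000456, for Psmb8. The median of the member means was 79.3 RPKM over all 48, against 7.38 RPKM over all genes tested. Together the members took 0.945%, 1.03%, 0.985% and 1.03% of the summed RPKM of replicates 1 to 4.

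**Figure D1:**
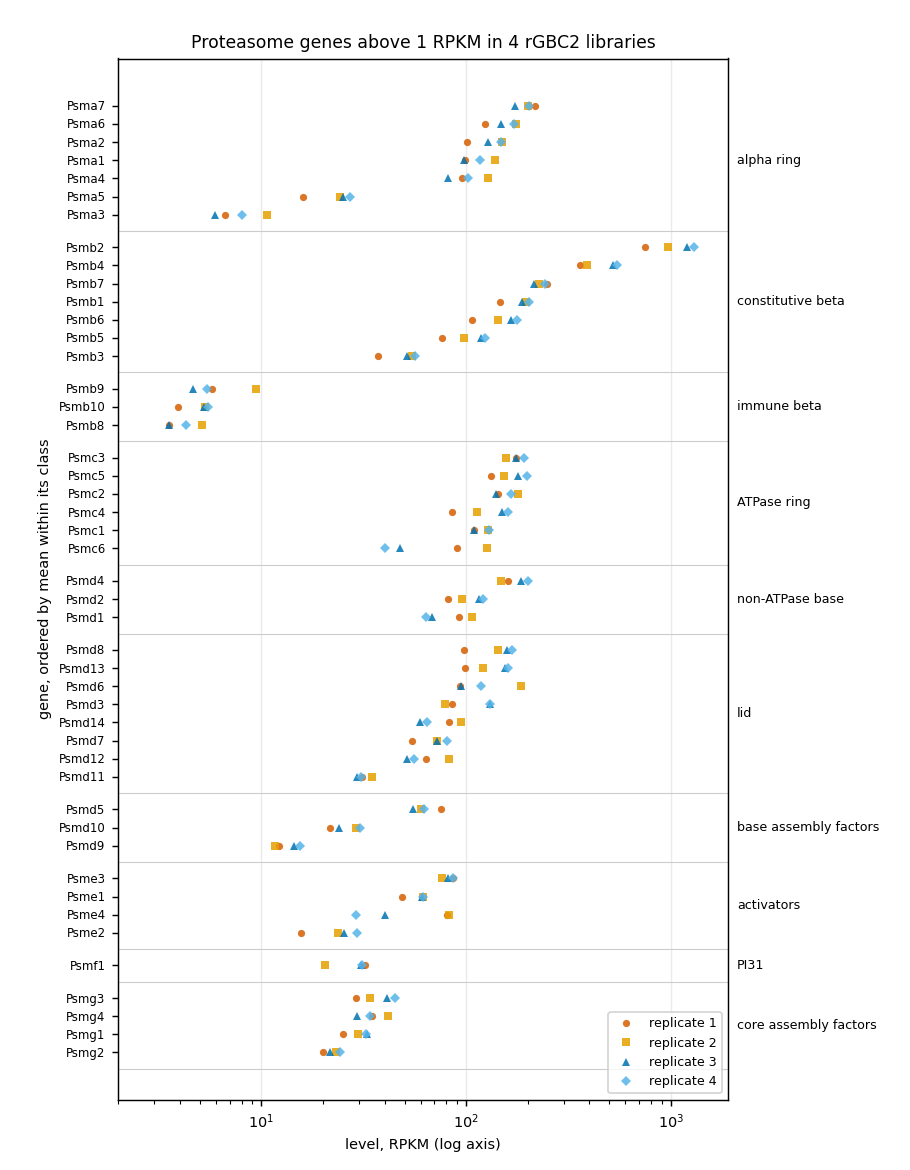
Level in RPKM (log axis) of the 46 proteasome genes above 1 RPKM, one row per gene and one symbol per library, ordered by mean within each class. The immune beta genes lie between 3.53 and 9.37 RPKM, in each library below every other gene shown, with Psma3 next above them, and Psmb2 lies highest.

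The 2 members not above 1 RPKM are forms of the core particle found in single tissues. Psma8, the alpha subunit of testis, was listed at 0 in all 4 libraries. Psmb11, the beta5t subunit of cortical thymic epithelium, had 0.01 RPKM in replicate 3, about 1 read, but no signal listed in replicates 1, 2 and 4, and it lay below 1 RPKM (limma, adjusted p = 2.29e-07). With the depths estimated here, a transcript 1 kilobase long needs 0.0914 to 0.135 RPKM to hold 3 reads. Both values lie under that floor, which covers counting error only.

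The RNA of the catalytic subunits was almost entirely of the constitutive kind. Protein was not measured, and a ratio of RPKM does not give the ratio of the proteins. Psmb6 was measured at 106, 143, 165 and 176 RPKM in replicates 1 to 4 (148 ± 30.9, SD, n = 4), and its immune counterpart Psmb9 at 5.76, 9.37, 4.61 and 5.41 RPKM (6.29 ± 2.11). The lowest Psmb6 value lay far above the highest Psmb9 value. Psmb7 stood at 249.5, 226, 215 and 242 RPKM (233 ± 15.6), and Psmb10 at 3.91, 5.32, 5.22 and 5.50 RPKM (4.99 ± 0.728). This pair was the farthest apart. Psmb5 stood at 76.3, 97.35, 118 and 124 RPKM (104 ± 21.8), and Psmb8 at 3.53, 5.11, 3.55 and 4.29 RPKM (4.12 ± 0.749). All 3 immune genes nevertheless lay above 1 RPKM in limma's test, with 123 to 282 estimated reads per gene and library.

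**Figure D2:**
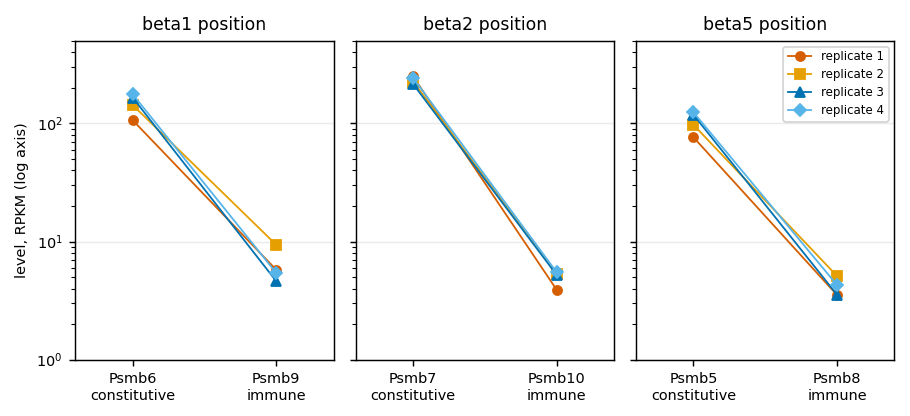
Level in RPKM (log axis) of each constitutive catalytic subunit and the immune subunit that replaces it, with one line per library. All 12 lines fall, from between 76.3 and 249.5 RPKM to between 3.53 and 9.37 RPKM.

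As ratios of RPKM, Psmb6 exceeded Psmb9 by 18.4, 15.3, 35.8 and 32.6 times in replicates 1 to 4. Psmb7 exceeded Psmb10 by 63.8, 42.4, 41.2 and 44.1 times, and Psmb5 exceeded Psmb8 by 21.6, 19.1, 33.4 and 28.9 times. The beta1 and beta5 ratios were thus higher in replicates 3 and 4 than in replicates 1 and 2, whereas the beta2 ratio was highest in replicate 1. On the log2(RPKM + 1) scale, the differences were 4.37 ± 0.55, 5.30 ± 0.26 and 4.34 ± 0.35 (SD, n = 4), each in the same direction in 4 of 4 libraries. The mean over the constitutive genes exceeded that over the immune genes by 4.67 ± 0.27 on this scale. It did so by 4.45 within replicates 1 and 2 and by 4.88 within replicates 3 and 4. The exact two-sided sign-flip permutation test gave p = 0.13, rounded, for each of these 4 differences, the smallest value that 4 libraries allow, and 0.143 after adjustment over the 8 differences tested.

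The share of the immune gene in its pair, in RPKM, was 5.14%, 6.15%, 2.72% and 2.98% for Psmb9 in replicates 1 to 4. It was 1.54%, 2.30%, 2.37% and 2.22% for Psmb10, and 4.42%, 4.99%, 2.91% and 3.34% for Psmb8. Of all 6 catalytic genes together the immune genes made up 2.96%, 4.08%, 2.61% and 2.72%, so replicate 2 held the largest share. In bulk RNA, a few cells with much immune subunit RNA and many cells with little cannot be told apart.

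Leukocytes express immune subunits at high levels, so their markers are given beside this result. Of 16 leukocyte markers, 4 lay above 1 RPKM, 9 below, 1 in neither direction and 2 were listed at 0. The shares over all genes tested were 65% above and 26.1% below. Cd3e was listed at 0 in every library, Ptprc reached at most 0.01 RPKM and Lyz2 at most 0.19 RPKM, so these defining markers were at or near 0. The 4 above were Cd74 (19.3 ± 8.97 RPKM), H2-Ab1 (9.01 ± 0.527 RPKM), Coro1a (5.34 ± 3.78 RPKM) and Cd52 (4.62 ± 1.84 RPKM). The summed level of the list ranged from 20.6 RPKM in replicate 1 to 51.0 RPKM in replicate 4.

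Psmb8 and Psmb9 lie in the class II region of the major histocompatibility complex, interleaved with the transporter genes that carry their peptide products. In mm9, as the deposited table gives it, Psmb9 spans chromosome 17 from 34319043 to 34324275 on the minus strand and Tap1 follows from 34324500 to 34334170 on the plus strand. Psmb8 lies from 34335139 to 34338399 and Tap2 from 34341423 to 34353266. Tap1 was at 13.8, 14.1, 12.9 and 13.6 RPKM and Tap2 at 12.9, 13.1, 11.9 and 11.9 RPKM in replicates 1 to 4. Their SD of log2(RPKM + 1) was 0.05 and 0.07, against 0.38 for Psmb9, 0.21 for Psmb8 and 0.19 for Psmb10. The Psmb9 transcript shares 12.5% of its 50-base stretches with Tap1 transcripts and that of Psmb8 shares 5.83% with an antisense gene. How far reads of these neighbours enter the levels of Psmb9 and Psmb8 was not tested. Psmb10 lies apart, on chromosome 8 from 108459627 to 108462292. The constitutive genes are dispersed, with Psmb6 on chromosome 11 from 70338858 to 70341360, Psmb7 on chromosome 2 from 38443565 to 38499426 and Psmb5 on chromosome 14 from 55232956 to 55236832.

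The upstream sequences of the catalytic genes are shown because the level of the constitutive and immune genes differed in every library. Promoters in the RefSeq table (GRCm38.p6) matched 40 of the 48 members. Psma8, Psmb1, Psmb2, Psmb7, Psmc3, Psmd3, Psmd7 and Psmg2 had no entry. The 250 bases before the start are chr14:54617996-54618245 on the minus strand for Psmb5, chr11:70525107-70525356 on the plus strand for Psmb6, chr17:34197945-34198194 on the plus strand for Psmb8, chr17:34187331-34187580 on the minus strand for Psmb9 and chr8:105938393-105938642 on the minus strand for Psmb10. Each sequence reads 5′ to 3′ towards the start. Capitals mark matches on either strand to the motifs searched, which were the interferon-stimulated response element (TTTCNNTTTC), the gamma-activated site (TTCNNNGAA), the antioxidant response element core bound by Nfe2l1 and Nfe2l2 (TGACNNNGC) and the CCAAT box (CCAAT).
Psmb5: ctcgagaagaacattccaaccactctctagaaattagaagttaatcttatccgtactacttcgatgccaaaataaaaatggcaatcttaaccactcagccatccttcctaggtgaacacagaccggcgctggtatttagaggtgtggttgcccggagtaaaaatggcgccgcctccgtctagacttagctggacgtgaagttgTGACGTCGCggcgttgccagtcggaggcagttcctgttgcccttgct
Psmb6: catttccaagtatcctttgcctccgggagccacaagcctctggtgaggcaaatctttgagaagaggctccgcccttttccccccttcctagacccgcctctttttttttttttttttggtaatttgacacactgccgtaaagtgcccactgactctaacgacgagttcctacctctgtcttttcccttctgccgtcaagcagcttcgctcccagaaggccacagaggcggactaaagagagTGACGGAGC
Psmb8: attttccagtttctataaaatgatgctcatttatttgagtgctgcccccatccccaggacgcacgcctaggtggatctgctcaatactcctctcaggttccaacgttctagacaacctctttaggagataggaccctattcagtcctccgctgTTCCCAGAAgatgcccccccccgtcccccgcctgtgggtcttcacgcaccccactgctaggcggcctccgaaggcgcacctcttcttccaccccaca
Psmb9: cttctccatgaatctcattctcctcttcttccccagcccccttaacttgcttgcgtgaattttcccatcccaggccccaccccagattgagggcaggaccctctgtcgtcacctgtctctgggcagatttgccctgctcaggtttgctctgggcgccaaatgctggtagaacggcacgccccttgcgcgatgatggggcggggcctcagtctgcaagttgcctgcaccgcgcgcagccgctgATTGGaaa
Psmb10: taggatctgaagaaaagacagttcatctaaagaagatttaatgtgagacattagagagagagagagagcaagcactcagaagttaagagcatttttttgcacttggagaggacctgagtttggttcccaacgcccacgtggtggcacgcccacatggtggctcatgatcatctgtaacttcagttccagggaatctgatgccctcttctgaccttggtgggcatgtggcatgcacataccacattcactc

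Psmb5 and Psmb6 each held 1 antioxidant response element core, TGACGTCGC and TGACGGAGC. Psmb8 held 1 gamma-activated site, TTCCCAGAA, Psmb9 held 1 CCAAT box read on the opposite strand, ATTGG, and Psmb10 held none of the 4 motifs in this window. Over all 32851 promoter windows of this length, 10.2% held the antioxidant core, 7.02% the gamma-activated site, 2.98% the interferon-stimulated element and 33.8% the CCAAT box. Among the 40 matched members the counts were 5, 2, 3 and 14, and the 3 with the interferon-stimulated element were Psmb3, Psmd4 and Psmd9. A member was counted once if any of its windows held the motif, whereas the shares over all promoters count each window. These matches describe letters in 1 window and are not evidence of binding.

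The alpha ring was represented by all 7 common subunits. Psma7, an outer-ring subunit, was highest at 217, 201, 173 and 203 RPKM in replicates 1 to 4 (199 ± 18.2, SD, n = 4), and Psma3 lowest at 6.64, 10.6, 5.92 and 8.05 RPKM (7.80 ± 2.06). Psma3 lay below every other constitutive member in all 4 libraries. Psma6 (155 ± 23.9 RPKM), Psma2 (131 ± 22.9 RPKM), Psma1 (113 ± 18.7 RPKM) and Psma4 (102 ± 19.4 RPKM) lay close together, and Psma5 stood at 23.1 ± 4.92 RPKM. The alpha subunits are present in equal number in a finished core particle, yet the highest and lowest means differed 25.5-fold.

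The means of the constitutive beta ring spanned a 21.2-fold range. Psmb2, the non-catalytic beta4 subunit, was the most abundant member, at 750.1, 966, 1196 and 1301 RPKM in replicates 1 to 4 (1053 ± 246, SD, n = 4). It made up 16.5%, 17.8%, 21.7% and 21.7% of the summed level of all members. Psmb4, the beta7 subunit, followed at 359, 389, 523 and 546 RPKM (454 ± 93.9). Both were lowest in replicate 1 and highest in replicate 4. Psmb2 stayed at 2.09 to 2.48 times Psmb4. Psmb1 (183 ± 25.1 RPKM), the beta6 subunit, lay near the catalytic genes, and Psmb3, the beta3 subunit, was lowest at 37.0, 54.2, 51.4 and 56.2 RPKM (49.7 ± 8.68).

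Several of the low members share sequence with other genes. The share of 50-base stretches of the matched GENCODE transcript that also lie in transcripts of another gene was 62.1% for Psme2, 57.1% for Psmb5, 55.8% for Psmb3 and 55.4% for Psma5, with a pseudogene as the gene that shared most or, for Psme2, the related gene Psme2b. Psma4 shared 31.5%, Psmb7 28.1%, the latter with its neighbour Nek6, and Psma3 22.0%. The median level of the 4 members above 50% was 36.5 RPKM, against 113 RPKM for the 23 members that shared none. Of those that shared none, Psmb10 was lowest at 4.99 RPKM. Psmb5, Psmb7 and Psma4 had means above 100 RPKM with shares of 57.1%, 28.1% and 31.5%. Across the 46 members the Spearman correlation of level and share was -0.24. How reads with several matches were counted is not given in the sources used here, so these levels are uncertain, and the part of shared sequence in them was not tested.

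**Figure D3:**
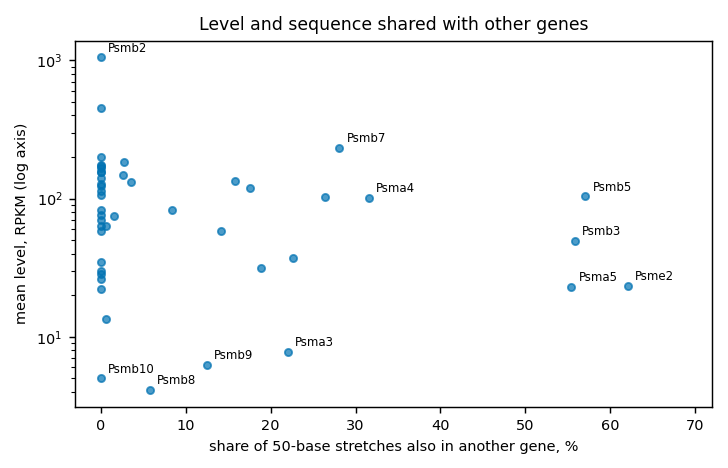
Mean level in RPKM (log axis) of 46 proteasome genes against the share of 50-base stretches of their transcript that also occur in another gene. Psma5, Psmb3, Psmb5 and Psme2 share over 50%, while Psmb10 is low with no shared stretch.

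By the range of its means, the regulatory particle was more even than the core particle. Its 17 subunits ranged from Psmd11 to Psmc3, a 5.56-fold range of means, against 135-fold over the 14 alpha and constitutive beta subunits. The core range runs from Psma3 to Psmb2, and the alpha and constitutive beta rings alone spanned 25.5-fold and 21.2-fold. Their lowest genes, Psma3 and Psmb3, share 22.0% and 55.8% of 50-base stretches with other genes, so these ranges are uncertain. In the regulatory particle the largest such share was 26.4%, for Psmd2, and Psmd11 shares 18.9%. The median of the core exceeded that of the regulatory particle by 0.24 ± 0.06 in log2(RPKM + 1), or 1.18-fold (SD, n = 4), in 4 of 4 libraries (exact sign-flip permutation p = 0.13, adjusted 0.143).

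The means of the 6 ATPases, the motor of the regulatory particle, lay within a 2.29-fold range. Psmc3 was highest at 175, 156, 176 and 191 RPKM in replicates 1 to 4 (175 ± 14.3, SD, n = 4), followed by Psmc5 (166 ± 28.6 RPKM), Psmc2 (157 ± 18.9 RPKM), Psmc4 (127 ± 34.4 RPKM) and Psmc1 (119 ± 11.4 RPKM). Psmc6 was lowest and the most variable member of all, at 90.1, 126, 47.5 and 40.3 RPKM (76.1 ± 40.2). Its values in replicates 3 and 4 lay below both others, so that in replicate 4 it stood at 40.3 RPKM beside 197 RPKM of Psmc5. The median of the ATPases exceeded that of the 8 lid subunits by 0.68 ± 0.12 in log2(RPKM + 1), or 1.60-fold (SD, n = 4), in 4 of 4 libraries (exact sign-flip permutation p = 0.13, adjusted 0.143).

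Among the non-ATPase subunits of the base, the ubiquitin receptor Psmd4 was highest at 160.1, 147, 184 and 199.6 RPKM in replicates 1 to 4 (173 ± 23.6, SD, n = 4). The scaffold Psmd1 was lowest at 92.0, 106, 68.2 and 63.7 RPKM (82.5 ± 20.1). Psmd4 was higher and Psmd1 lower in replicates 3 and 4 than in replicates 1 and 2. The scaffold Psmd2 stood at 103 ± 18.2 RPKM.

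In the lid, which removes ubiquitin chains, Psmd8 was highest at 97.8, 144, 158 and 167 RPKM (142 ± 30.9, SD, n = 4) and Psmd11 lowest at 31.1, 34.7, 29.2 and 30.6 RPKM (31.4 ± 2.38). Psmd14, the deubiquitinase that cuts chains off the substrate, stood at 82.3, 94.3, 59.3 and 64.3 RPKM (75.01 ± 16.2). Psmd6 was at 93.5, 185, 94.1 and 119 RPKM (123 ± 43.2), with replicate 2 far above the others. The remaining lid genes Psmd13, Psmd3, Psmd7 and Psmd12 had means between 63.4 and 134 RPKM.

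Activators bind the end of the core in place of the regulatory particle. Psme1 and Psme2, the interferon-inducible PA28 alpha and beta, lie side by side on chromosome 14 and form 1 ring together. Psme1 was at 48.6, 61.8, 60.6 and 61.5 RPKM in replicates 1 to 4 (58.1 ± 6.39, SD, n = 4) and Psme2 at 15.6, 23.6, 25.2 and 29.2 RPKM (23.4 ± 5.74), so Psme1 was 2.10 to 3.12 times as high. Both were lowest in replicate 1. Unlike the immune catalytic genes, they were within the range of the other members. Psme3, the nuclear PA28 gamma, was the steadiest of the 46 genes, at 86.2, 76.4, 81.4 and 86.2 RPKM (82.6 ± 4.69). It exceeded the mean of Psme1 and Psme2 in 4 of 4 libraries, by 2.23-fold on the log2(RPKM + 1) scale. The difference for Psme1 and Psme2 minus Psme3 was -1.16 ± 0.30 (exact sign-flip permutation p = 0.13, adjusted 0.143). Psme2 shares 62.1% of its 50-base stretches with other genes, so its level and the size of this difference are uncertain. Psme1 alone also lay below Psme3 in every library.

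Psme4, which encodes PA200, an activator linked to histone breakdown, was at 80.3, 82.0, 40.2 and 28.9 RPKM in replicates 1 to 4 (57.9 ± 27.3, SD, n = 4). Replicates 1 and 2 lay above replicates 3 and 4. The difference of Psme1 and Psme2 from Psme4 was -0.52 ± 0.94 on the log2(RPKM + 1) scale, smaller than its SD, and negative in 3 of 4 libraries (exact sign-flip permutation p = 0.375, adjusted 0.375). It was -1.29 within replicates 1 and 2 and 0.25 within replicates 3 and 4, so its direction differed between these pairs. Without replicate 1 it was -0.19 and without replicate 4 it was -0.87.

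Psmf1, the proteasome-binding protein PI31, stood at 31.95, 20.5, 30.5 and 31.1 RPKM in replicates 1 to 4 (28.5 ± 5.35, SD, n = 4), lowest in replicate 2. The 4 chaperones that assemble the core were also present. Psmg3 was at 29.1, 34.1, 41.2 and 44.9 RPKM (37.3 ± 7.09) and Psmg4 at 34.7, 41.6, 29.3 and 34.0 RPKM (34.9 ± 5.07). Psmg1 was at 25.0, 29.5, 32.7 and 32.3 RPKM (29.9 ± 3.57) and Psmg2 at 20.02, 23.1, 21.6 and 24.3 RPKM (22.3 ± 1.86). These chaperones lay within a 1.68-fold range of means. Of the chaperones of the base, Psmd5 was highest at 75.04, 59.96, 54.9 and 62.5 RPKM (63.1 ± 8.58) and Psmd9 lowest at 12.2, 11.6, 14.4 and 15.4 RPKM (13.4 ± 1.802), and Psmd10, also known as gankyrin, stood at 26.2 ± 4.03 RPKM.

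Spread between libraries differed widely among members. The median SD of log2(RPKM + 1) over the 4 libraries was 0.26 for the 46 members above 1 RPKM and 0.31 for the 11001 genes above it. The 3 largest were Psmc6 (0.76), Psme4 (0.73) and Psmd6 (0.46), and the 3 smallest Psme3 (0.08), Psmb7 (0.10) and Psmd11 (0.10). Replicate 1 was the lowest library for 24 of the 46 members, or 52.2%, against 22.1% of all genes above 1 RPKM. This held for 6 of 7 constitutive beta genes, Psmb7 being the exception, and for 5 of 7 with libraries rescaled to equal sums. Rescaled to equal upper quartiles the count was 28 of 46, or 60.9%, against 28.1% of all genes above 1 RPKM. Rescaled to equal sums it was 19 of 46, or 41.3%, against 13.3%.

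**Figure D4:**
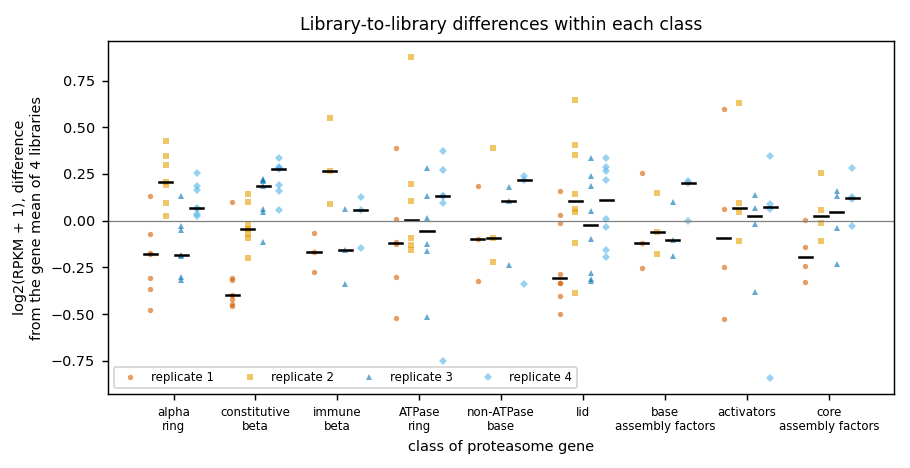
Difference of each gene in each library from its own mean over the 4 libraries, in log2(RPKM + 1), by class, with a black bar for the median of each library. The constitutive beta genes sit below 0 in replicate 1 except Psmb7, and the lowest points in replicate 4 are Psme4 and Psmc6.

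The members did not move as one block between the libraries with and without Y-linked reads. In RPKM as deposited, 17 of the 46, or 37.0%, were higher in both replicates 3 and 4 than in both replicates 1 and 2. The share over all genes above 1 RPKM was 30.6%. Among the 17 were Psmb2, Psmb4, Psmb5, Psmb6, Psmc4, Psmd3 and Psmd13. The opposite order held for 8 of 46, or 17.4%, against 40.3% of all genes above 1 RPKM. The 8 were Psmb9, Psmc6, Psmd1, Psmd11, Psmd12, Psmd14, Psme4 and Psmg4. The split depended on scaling. With libraries rescaled to equal sums, 13 members (28.3%) were higher, against 19.7% of all genes above 1 RPKM, and 15 (32.6%) lower, against 49.4%. That scaling moved the median difference of all genes above 1 RPKM from -0.07 to -0.24. With equal upper quartiles, 23 (50%) were higher, against 36.4% of all genes above 1 RPKM, and 5 (10.9%) lower, against 35.4%. The largest differences of replicates 3 and 4 from replicates 1 and 2 were -1.27 for Psmc6 and -1.23 for Psme4 on the log2(RPKM + 1) scale, and 0.67 for Psmd3 and 0.65 for Psmc4.

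GC content of the transcript moved with this difference. Across the 46 members the Spearman correlation was 0.56, and across 10606 genes above 1 RPKM with a matched transcript it was 0.58, in the same 4 libraries. With transcript length it was -0.29 and -0.26. The 17 members that were higher in replicates 3 and 4 had 49.2% to 58.3% GC, and the 8 that were lower 37.0% to 55.3%. Psmc6 had the lowest GC content of all members, 37.0%, and Psmd3 the highest, 58.3%, whereas Psmb9 (55.3%) and Psmg4 (55.3%) were lower in replicates 3 and 4 with a high GC content. The part of base composition in these differences was not tested.

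**Figure D5:**
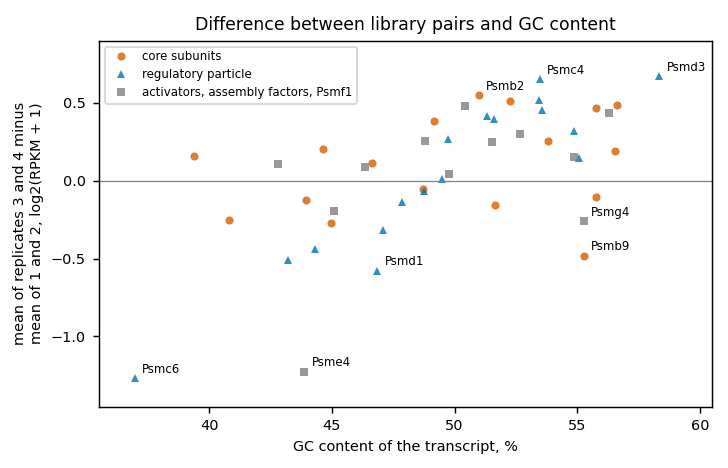
Difference of the mean of replicates 3 and 4 from the mean of replicates 1 and 2, in log2(RPKM + 1), against transcript GC content in percent for 46 proteasome genes. Psmc6 and Psme4 lie lowest, Psmd3 and Psmc4 highest, and Psmb9 and Psmg4 lie below 0 at 55.3% GC.

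Partners of the proteasome in the ubiquitin system were all transcribed. Of 26 genes listed 25 were in the table. All 25 lay above 1 RPKM, against 65% of all genes tested, with a median of 37.3 RPKM. Ubb, a polyubiquitin gene, stood at 253 ± 68.2 RPKM (SD, n = 4), Shfm1, a small lid subunit named outside the Psm series, at 252 ± 47.5 RPKM, and Uba1, the main ubiquitin-activating enzyme, at 198 ± 65.9 RPKM. Pomp, the chaperone that completes core assembly, was at 103, 149.7, 154 and 182 RPKM in replicates 1 to 4 (147 ± 32.7), again lowest in replicate 1.

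Of 7 regulators of proteasome gene transcription, 5 lay above 1 RPKM, 1 below and 1 in neither direction. Over all genes tested, 65% lay above and 26.1% below. Ddi2, the protease that activates Nfe2l1, stood at 172 ± 26.0 RPKM (SD, n = 4), Nfe2l1, the factor that raises proteasome genes when the protease is inhibited, at 104 ± 12.4 RPKM, and Nfe2l2 at 66.1 ± 30.4 RPKM. Nfe2l1 was at 97.7, 89.7, 113 and 115 RPKM in replicates 1 to 4, whereas Nfe2l2 was at 106, 73.1, 43.2 and 41.7 RPKM. In replicates 3 and 4, Nfe2l1 was thus higher and Nfe2l2 lower than in replicates 1 and 2. Ddi1, the testis homologue of Ddi2, lay below 1 RPKM, with 0.08 RPKM in replicate 1, 0.03 RPKM in replicate 2 and no signal listed in the other libraries.

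Of 23 genes of interferon signalling and class I antigen processing, 19 lay above 1 RPKM, 2 below and 2 were listed at 0. Among all genes tested, the shares were 65% above and 26.1% below. B2m, the class I light chain, stood at 1406 ± 564 RPKM (SD, n = 4), and the heavy chains H2-K1 at 892 ± 128 RPKM and H2-D1 at 663 ± 97.2 RPKM. The class I chains were thus far above the immune catalytic genes, and Tap1 and Tap2 also lay above all 3 of them in every library. Ifng and Ifnb1, the interferons themselves, were listed at 0, and Nlrc5, the class I transactivator, lay below 1 RPKM at 0.15, 0.38, 0.17 and 0.17 RPKM in replicates 1 to 4, as did Irf8 at 0.355 ± 0.140 RPKM. Irf9, part of the interferon-activated transcription complex, was at 13.6, 36.2, 22.1 and 24.2 RPKM. Replicate 2 was highest for Irf9, Nlrc5, Psmb8 and Psmb9, but not for Psmb10 or Irf1 (25.9, 25.7, 27.3 and 28.7 RPKM).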

How the data were processed

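RPKM values for 20377 genes in the 4 libraries were deposited by the authors in 1 table, rounded to 2 decimals, with mm9 coordinates. The submitters' processing notes name CASAVA 1.8.2 and Bowtie. How reads were counted, and what became of those that match several genes, is not given in the sources used here. The table has 6 further per-sample columns that match no sample of this series and were not used. Levels were tested against 1 RPKM with limma 3.58.1 (R 4.3.3) on log2(RPKM + 1) with a mean-variance trend, two-sided, over 16919 genes (those at 0 in all 4 libraries left out), with an adjusted p threshold of 0.05. The procedure was also run on simulated data, whose outcome is not given here, with the libraries drawn independently. The simulation therefore does not cover the likeness of replicates 3 and 4. Differences within libraries used an exact sign-flip permutation test. Depth was estimated from the steps of low values of 993 short olfactory receptor genes, of which 11 to 30 nonzero values per library were fitted, each lying no more than 0.0051 RPKM from a multiple of 1 read. GC content, length and shared sequence came from GENCODE transcripts matched by RefSeq identifier. Members described library by library were the catalytic, tissue, activator and core assembly genes, the highest and lowest of each class, and the extremes of spread. Members and lists were chosen with earlier results of these data known. Alternatives were other pseudocounts, filters, scalings and levels, and leaving out each library.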

Additional observations from a re-analysis of the deposited data

Results flagged for a closer look

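In 61 sets of 4 values (46 genes, 8 differences and 7 shares or ratios), 5 had 1 library farther from the others than the 95% limit of Dixon's test. Chance alone flags about 1 set in 20. The sets share genes, so flags can repeat each other, and the count of 5 cannot be judged against that rate. Psme1 enters the flagged difference from Psme3, and Psmb10 enters the flagged ratio. For Psme1 the gap took 0.921 of the range, with replicate 1 lowest at 5.63 in log2(RPKM + 1). The difference of Psme1 and Psme2 from Psme3 had a gap of 0.908, with replicate 1 at -1.61. For Psmf1 the gap was 0.893, with replicate 2 lowest at 4.43 in log2(RPKM + 1). For Psmb10 it was 0.843, with replicate 1 lowest at 2.30 in log2(RPKM + 1), and the RPKM ratio of Psmb7 to Psmb10 had a gap of 0.875, with replicate 1 at 63.8.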

How the results depend on the processing

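The 46 members above 1 RPKM stayed at 46 under every pseudocount, filter, scaling, level and left-out library tried. The count below 1 RPKM, which rests on Psmb11 and 1 estimated read, was 0 with only genes of a mean of at least 0.1 RPKM, 2 with no filter, 0 to 1 with each library left out (0 without replicate 3) and 0 with only the libraries with Y-linked reads, since Psmb11 was then not tested or Psma8 was added. Of the 8 differences, only that of Psme1 and Psme2 from Psme4 changed direction, to 0.25 with only the libraries without Y-linked reads, and -0.87 to -0.19 was its range with each library left out. The mean over the constitutive catalytic genes exceeded that over the immune genes by 4.59 to 4.78 on the log2(RPKM + 1) scale with each library left out, by 4.90 and 4.93 with pseudocounts of 0.1 and 0.01, and by 4.60 with replicates 3 and 4 averaged. The alternatives that use only some libraries by Y-linked reads, or average replicates 3 and 4, were chosen after seeing the data. Under the 2 rescalings all 92 mean levels of single members lay within 1 SD of the reported mean. Both rescalings bring the libraries to their average size, so these means could hardly move, and the result is no check of them. The order of libraries for a gene did depend on scaling. No paired analysis was possible because there is 1 group and no other to pair it with, while the 8 differences are taken within each library. Estimated depth limits statements on members under about 0.135 RPKM.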
